A study of Mus musculus with 12 samples.

Results

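Insulin receptor signalling was followed through 9 genes, from the receptor to the transcription factors at the end of the pathway: Insr, Irs1, Irs2, Pik3r1, Pdpk1, Akt1, Akt2, Foxo1 and Foxo3. They were taken by symbol, and all 9 were found among the 22456 genes of the expression table and passed its filter on low values, which 11507 genes passed. Their skipped exon events were taken from the splicing tables by the same symbols, and numbered 54 of 84592 events in fasted liver and 45 of 75694 in refed liver. A skipped exon event pairs an exon with its neighbours and counts the reads that include it and the reads that join the neighbours without it.

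Insulin binds the receptor on the hepatocyte, and the activated receptor phosphorylates adaptor proteins, the insulin receptor substrates, which recruit phosphoinositide 3-kinase. The lipid made by that kinase brings PDK1 and AKT to the membrane, where AKT is activated and then keeps the FoxO transcription factors out of the nucleus. In fasted liver insulin is low, and nuclear FoxO drives genes of glucose output and stress resistance as well as Irs2 and Insr themselves.

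The data were RNA-Seq of whole liver from adult male mice on the BALB/cByJ background, with 12 libraries in 4 groups of 3. Lpin1-/- mice carried the fatty liver dystrophy (fld) mutation in every tissue, and their Lpin1+/+ littermates were wild type at that gene, which encodes lipin 1, a phosphatidic acid phosphatase and transcriptional coactivator. Fasted mice of both genotypes went 16 hours overnight without food in single cages, and refed mice had the same fast followed by 5 hours of chow. Refed mice were therefore also sampled later in the day, so feeding and time of day cannot be told apart, and the labels do not say that replicates were anything more than separate samples of a group. Levels are given in RPKM (reads on a gene scaled by transcript length in kilobases and by library size), mean ± SD with n = 3. Changes are differences of log2(RPKM + 1) with their SE and with adjusted p from limma, Benjamini-Hochberg over the 11507 genes, called under 0.05.

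Lpin1 itself was at most 0.0597 RPKM in the 6 Lpin1-/- libraries and at least 0.726 RPKM in the 6 Lpin1+/+ libraries, so every library matched its genotype label. Yet the limma fit did not call Lpin1 in either state, at changes of -2.19 fasted and -1.55 refed. A gene that did not pass is therefore not shown to be unchanged. Of 6 hepatocyte markers none was at 0 in any library, and their summed level ran from 32110 to 72420 RPKM. In each group 1 library was least like its group mates: replicate 1 in fasted Lpin1+/+, fasted Lpin1-/- and refed Lpin1-/-, and replicate 2 in refed Lpin1+/+, with mean correlations of 0.952, 0.949, 0.971 and 0.933. Fasted Lpin1-/- replicate 1 had a summed level of 5 biliary markers of 452 RPKM, against 19.2 to 103 RPKM in the other libraries, and refed Lpin1+/+ replicate 2 had 12.6 RPKM of 4 lymphocyte markers, against 0.644 to 5.47 RPKM. Fasted Lpin1+/+ replicate 1 and refed Lpin1-/- replicate 1 had the lowest RPKM totals, 629575 and 635426, where the others held 720416 to 819980. In bulk liver, fewer cells of a type and less RNA per cell cannot be told apart. Results are given below with and without these 4 libraries where it matters, a choice made after seeing the data. Leaving out the library least like its group mates narrows the spread within groups. Calls between fasted genotypes over all genes then rose from 2168 to 3399. The adjusted p of fits without these 4 libraries are therefore a description only.

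Averaged over the 12 libraries, the kinases Akt2 and Akt1 stood highest at 29.6 and 29.2 RPKM, at the 78.5th and 78.3rd percentile of the genes tested. Pik3r1 at 8.23, Insr at 7.57, Foxo3 at 6.95 and Foxo1 at 6.23 RPKM followed near the middle of all genes. Pdpk1 at 4.05, Irs2 at 3.23 and Irs1 at 1.33 RPKM closed the order, Irs1 at the 14.6th percentile. Neighbours in this order overlapped in their ranges over the libraries. The range itself was narrow for Akt1, whose highest library was 3.01 times its lowest, and wide for Irs2, at 32.5 times.

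**Figure D1:**
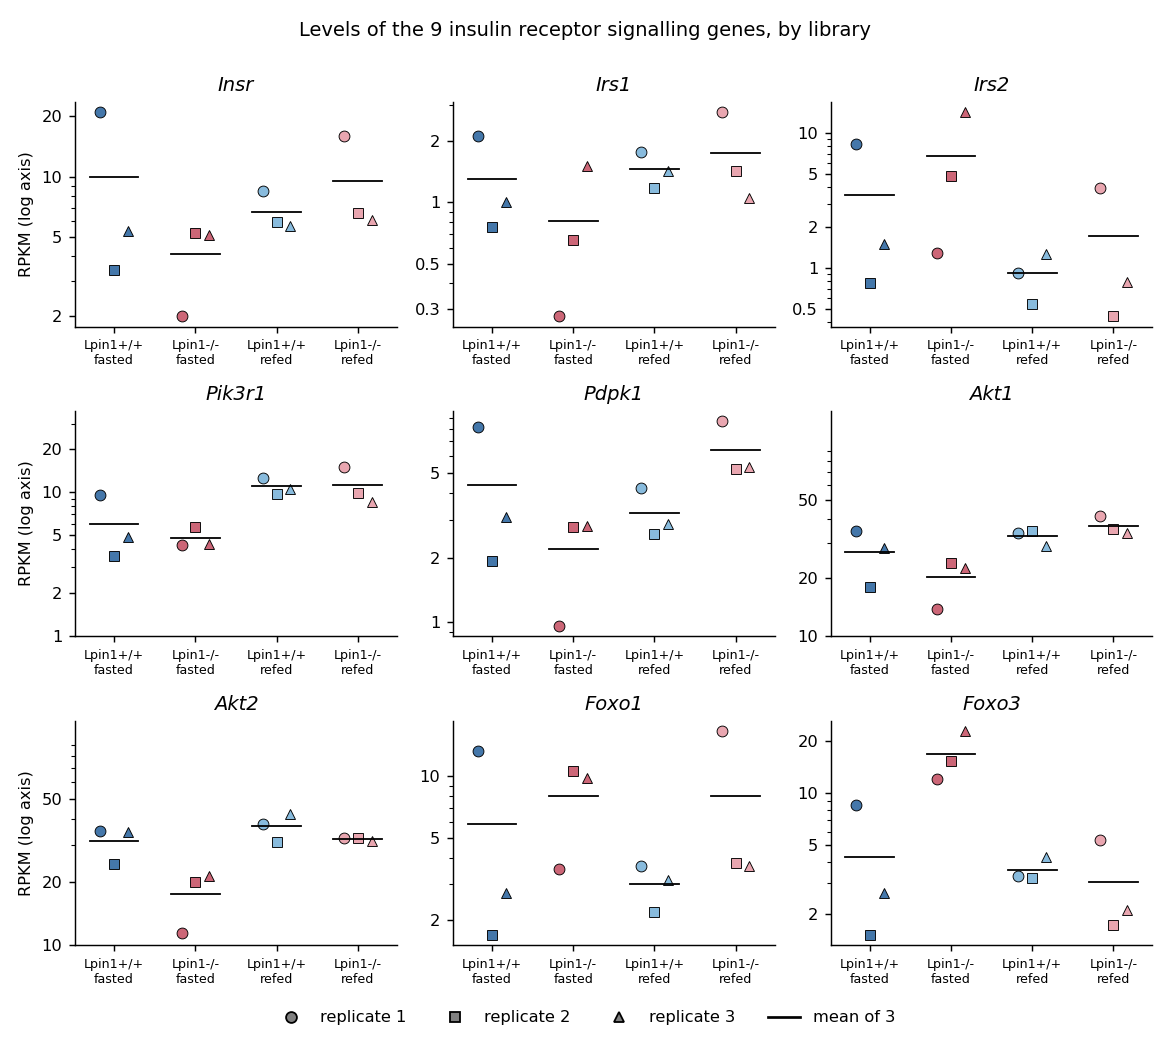
RPKM of each of the 9 genes in each of the 12 libraries, on log axes, with a symbol per replicate and a line at the mean of 3. Foxo3 stands apart in fasted Lpin1-/- liver at 12.1 to 23.0 RPKM, while replicate 1 of fasted Lpin1+/+ and of refed Lpin1-/- is the highest library of its group for each of the 9 genes.

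In fasted liver, Foxo3 rose and Akt2 fell in Lpin1-/- relative to Lpin1+/+, and the other 7 genes did not pass the test. That is 2 of 9, where 18.8% of all genes tested were called in this comparison, 5.63% higher and 13.2% lower. The median change of the 9 genes was -0.35, beside -0.14 over all genes. Groups did not overlap for the same 2 genes, as for 32.9% of all genes. In refed liver 0 of the 9 were called, where 6.67% of all genes were, and 0 had an unadjusted p under 0.05 in limma, the only tool run. The groups of Pdpk1 did not overlap there, nor did those of Foxo1, which lay apart by less than the digits printed here, beside 33.9% of all genes.

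On refeeding of Lpin1-/- mice, Pik3r1, Pdpk1, Akt1 and Akt2 rose and Foxo3 fell, which makes 5 of 9 where 20.7% of all genes were called, 17.8% higher and 2.92% lower. The median change was 0.88, beside 0.25 over all genes, and the groups of 6 genes did not overlap, beside 46.8% of all genes. In Lpin1+/+ liver 0 of 9 were called, where 1.72% of all genes were, with 1 unadjusted p under 0.05 in limma. Pik3r1 alone had groups that did not overlap in that comparison, beside 18.1% of all genes. The test of whether the genotypes responded differently to food, the interaction, called 0 of 9 genes, where 1.28% of all genes were called, with unadjusted p under 0.05 for Pdpk1 and Foxo3. The fasted Lpin1-/- libraries enter both the genotype comparison in the fasted state and the feeding comparison in Lpin1-/-, so the opposite changes of Foxo3 and of Akt2 in these comparisons share those libraries.

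**Figure D2:**
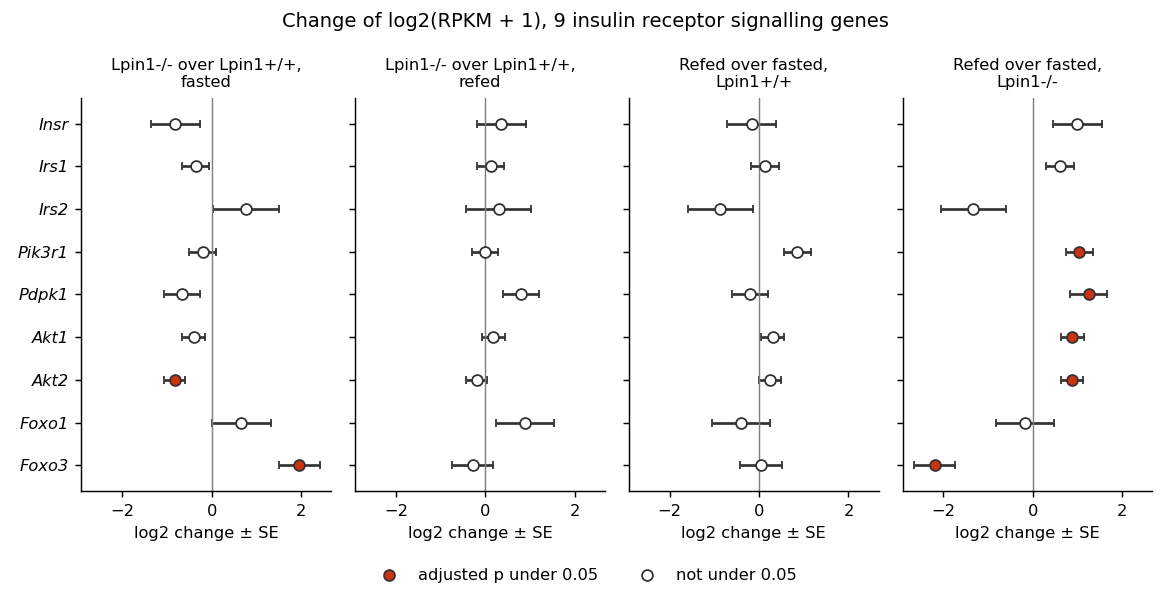
Change of log2(RPKM + 1) ± SE for the 9 genes in 4 comparisons, with filled points where adjusted p from limma was under 0.05. Filled points are Akt2 at -0.82 and Foxo3 at 1.96 between fasted genotypes, and Pik3r1, Pdpk1, Akt1 and Akt2 at 0.88 to 1.25 and Foxo3 at -2.20 after refeeding of Lpin1-/- mice.

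The scale of the libraries bears on these counts. The median of all genes shifted by 0.25 on refeeding of Lpin1-/- mice, and when each library was rescaled to a common median that shift became -0.03. After rescaling Foxo3 alone of the 9 was called in that comparison and between fasted genotypes, where Akt2 was at -0.63 (adjusted p = 0.0545). On refeeding of Lpin1-/- mice Akt1, Akt2, Pdpk1 and Pik3r1 then had changes of 0.53, 0.53, 0.99 and 0.73 with adjusted p of 0.0743, 0.112, 0.0750 and 0.0621. Among all called genes 85.9% were higher before rescaling and 59.2% after it.

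Insr, on the minus strand of chromosome 8 at chr8:3122061-3279617 (GRCm38), encodes the receptor. Its level in fasted Lpin1+/+ liver was 21.0, 3.41 and 5.32 RPKM in replicates 1 to 3, and in fasted Lpin1-/- liver 2.0, 5.24 and 5.11 RPKM. In refed liver it was 8.5, 5.90 and 5.66 RPKM in Lpin1+/+ and 16.0, 6.57 and 6.09 RPKM in Lpin1-/-. The genotypes overlapped in both states, and the highest values in the series came from the same 2 libraries that had the lowest RPKM totals. The change in Lpin1-/- was -0.81 ± 0.55 (SE, adjusted p = 0.334) fasted and 0.35 (adjusted p = 0.748) refed. Every refed Lpin1-/- library lay above every fasted one, yet the change of 1.00 ± 0.55 had an adjusted p of 0.213. Without the 4 libraries least like their groups it was 0.25 (adjusted p = 0.482), and the fasted genotype change turned to 0.23 (adjusted p = 0.512). The genes whose log2 levels followed Insr most closely over the 12 libraries were Ncoa2, Mcc and Dock4, with Pearson r of 0.990, 0.990 and 0.985, and within the pathway Pdpk1 had 0.930 and Foxo3 -0.02. These correlations share the libraries and are a description.

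The best known splicing choice of Insr is its short alternative exon, exon 11 of the human gene, which adds amino acids to the end of the ligand-binding subunit. The exon-included receptor is the main form of adult hepatocytes, and the skipped form binds IGF-II more tightly. The 36-nucleotide exon lay at chr8:3181702-3181737 on the minus strand (GRCm38) and is exon 4 of the 5 in the annotated transcript Insr-203, where it is coding and keeps the reading frame. Its sequence is shown because the receptor isoforms differ by it, with capitals for the 18 bases that every version of the exon in the splicing tables shares.

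Insr alternative exon: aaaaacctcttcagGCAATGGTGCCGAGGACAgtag

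In fasted Lpin1+/+ liver the 3 libraries held 381, 67 and 84 reads that included the exon and 11, 0 and 1 that skipped it. In fasted Lpin1-/- liver the inclusion counts were 16, 102 and 73 and the skipping counts 2, 2 and 3. Corrected for length, inclusion was 95.8, 100 and 98.2% in Lpin1+/+ and 84, 97.1 and 94.1% in Lpin1-/-, so the genotypes overlapped. Corrected in the same way, the count of 0 skipping reads beside 67 allows a skipping share of up to 6.69%, and the lowest inclusion, 84%, rested on 18 reads with a 95% Wilson interval of 57.3 to 95.3%. In refed liver inclusion was 100, 91.5 and 100% in Lpin1+/+, from 94, 115 and 93 inclusion counts and 0, 7 and 0 skipping counts. In refed Lpin1-/- liver it was 96.3, 92.1 and 91.0%, from 317, 107 and 77 inclusion counts and 8, 6 and 5 skipping counts. The refed genotypes overlapped too, through the lowest Lpin1+/+ library.

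Inclusion therefore averaged 97.99 ± 2.12% in Lpin1+/+ and 91.7 ± 6.88% in Lpin1-/- livers after fasting, and 97.2 ± 4.92% and 93.1 ± 2.80% after refeeding (SD, n = 3). Over both states inclusion was 5.17 percentage points lower in Lpin1-/-, which did not pass an exact two-sided permutation test within states (p = 0.065, the smallest p that the 400 arrangements allow being 0.005). Summed over all events of the exon the difference was -7.93 points (exact p = 0.065). Versions of the exon share skipping reads, which this sum counts more than once, so it is no separate estimate. In the log2 ratio of inclusion to skipping the difference was -1.91 (exact p = 0.05). Leaving out 1 library at a time gave differences of -3.23 to -6.58 points with exact p of 0.02 to 0.14. Without the second-listed fasted Lpin1-/- library the p was 0.03, and without the second-listed refed Lpin1+/+ library, the lowest of its group, it was 0.02. In the fit over all events the fasted change in the log2 ratio of inclusion to skipping was -1.82 (adjusted p = 0.197) and the refed change -1.99 (adjusted p = 0.397). Skipping reads pooled by group made up 2.21% of counts in Lpin1+/+ and 3.54% in Lpin1-/- livers after fasting, and 2.27% and 3.65% after refeeding, with overlapping Wilson intervals of 1.27 to 3.82%, 1.72 to 7.12%, 1.10 to 4.6% and 2.35 to 5.64%, which cover counting error only.

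**Figure D3:**
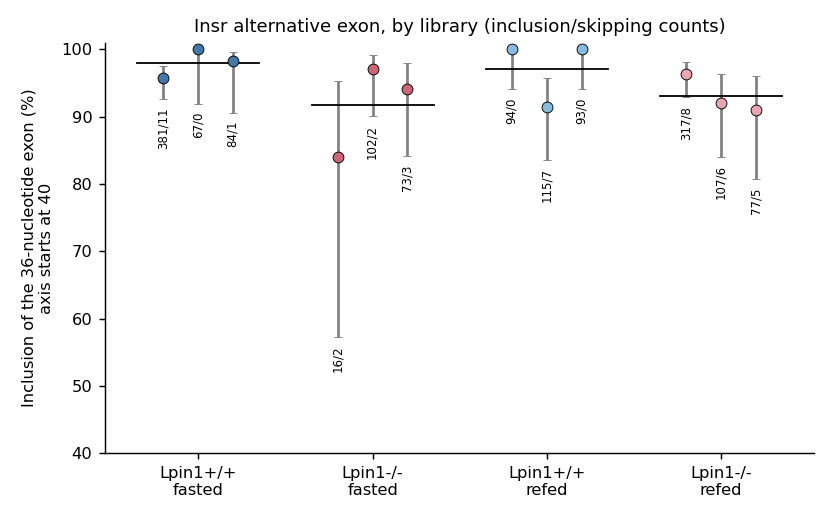
Inclusion of the 36-nucleotide Insr exon in each library, with 95% Wilson intervals, inclusion and skipping counts beside each point, a line at each group mean and an axis that starts at 40%. The Lpin1-/- means of 91.7 and 93.1% lie below the Lpin1+/+ means of 97.99 and 97.2%, with overlapping libraries in both states.

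A second Insr exon, the 148-nucleotide exon at chr8:3279029-3279176 at the 5′ end of the gene, matches no annotated exon in both start and end. Its inclusion averaged 97.2 ± 2.7% in fasted Lpin1+/+ and 85.9 ± 1.2% in fasted Lpin1-/- liver (SD). Inclusion was 94.7, 100 and 96.8% in fasted Lpin1+/+ and 86.6, 86.5 and 84.5% in fasted Lpin1-/- libraries, from 7, 0 and 1 and from 2, 7 and 6 skipping reads. The difference between fasted genotypes did not pass (adjusted p = 0.0669). In refed Lpin1-/- liver inclusion was 94.4, 100 and 97.7%, and the rise from fasted Lpin1-/- liver, 2.71 ± 0.72 in the log2 ratio, passed the test (adjusted p = 0.0327). That call was lost when any of the 3 fasted Lpin1-/- libraries, or the second-listed or the third-listed refed library, was left out (adjusted p of 0.0591 to 0.142). In refed Lpin1+/+ liver inclusion was 97.6, 100 and 100%.

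Irs1 and Irs2 encode the main insulin receptor substrates of liver. Irs1, at chr1:82233101-82291416 on the minus strand, was at 2.12, 0.759 and 1.00 RPKM in fasted Lpin1+/+ and 0.276, 0.652 and 1.499 RPKM in fasted Lpin1-/- liver. After refeeding it was at 1.76, 1.18 and 1.43 RPKM in Lpin1+/+ and 2.77, 1.42 and 1.05 RPKM in Lpin1-/-. Its groups overlapped in all 4 comparisons, and its changes ran from -0.35 (adjusted p = 0.455) between fasted genotypes to 0.61 (adjusted p = 0.176) on refeeding of Lpin1-/- mice, which without the 4 libraries were 0.11 (adjusted p = 0.730) and 0.13 (adjusted p = 0.698). Znrf3, Zfp282 and Lats2 followed it most closely over the libraries, with r of 0.978, 0.959 and 0.953.

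Irs2, at chr8:10984681-11008458 on the minus strand, is the substrate that falls with insulin and rises with fasting. It was at 8.21, 0.772 and 1.51 RPKM in fasted Lpin1+/+ and 1.30, 4.79 and 14.3 RPKM in fasted Lpin1-/- liver. Refed liver held 0.925, 0.545 and 1.28 RPKM in Lpin1+/+ and 3.93, 0.439 and 0.788 RPKM in Lpin1-/-. All 4 comparisons overlapped, and replicate 1 was the highest library in fasted Lpin1+/+ and refed Lpin1-/- and the lowest in fasted Lpin1-/- liver. Between fasted genotypes the change was 0.77 ± 0.73 (adjusted p = 0.501), and on refeeding it was -0.87 (adjusted p = 0.634) in Lpin1+/+ and -1.33 (adjusted p = 0.211) in Lpin1-/-. Without the 4 libraries least like their groups, and as a description only, Irs2 was higher in fasted Lpin1-/- liver by 2.16 (adjusted p = 0.0035). It then fell by 2.55 on refeeding of Lpin1-/- mice (adjusted p = 0.00205) and had an interaction of -2.54 (adjusted p = 0.0284). Its closest genes were Sesn2, Sorbs3 and Wipi1, with r of 0.942, 0.940 and 0.937, and within the pathway it followed Foxo1 at 0.831 and Foxo3 at 0.820, but Insr at 0.383 only.

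The 250 bases before the RefSeq start of Irs1, chr1:82291440-82291689, and of Irs2, chr8:11008930-11009179, are shown 5′ to 3′ on the minus strand (GRCm38.p6), because both adaptors hold the same pair of letters side by side. Capitals mark the E-box CACGTG and the insulin response element TGTTTTG (or its complement CAAAACA).

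Irs1 upstream: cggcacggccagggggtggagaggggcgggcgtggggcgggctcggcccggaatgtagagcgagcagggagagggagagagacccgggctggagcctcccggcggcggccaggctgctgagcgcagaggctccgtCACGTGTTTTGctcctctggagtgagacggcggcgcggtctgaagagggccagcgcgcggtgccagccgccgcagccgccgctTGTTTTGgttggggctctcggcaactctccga

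Irs2 upstream: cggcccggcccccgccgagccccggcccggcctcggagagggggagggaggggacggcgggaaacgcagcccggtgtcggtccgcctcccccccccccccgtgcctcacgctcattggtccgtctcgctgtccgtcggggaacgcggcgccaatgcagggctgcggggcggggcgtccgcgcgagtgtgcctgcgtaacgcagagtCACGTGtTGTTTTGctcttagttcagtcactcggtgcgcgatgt

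In Irs1 the E-box began at -115 and overlapped an insulin response element at -111, with a second element at -32, and in Irs2 they began at -44 and -37. Over 32851 promoter windows, which also hold 50 bases after the start, 7.15% held the E-box and 6.28% held TGTTTTG on either strand. The forkhead letters TGTTTAC (or GTAAACA), held by 3.65% of windows, were found at -161 in Akt1. Of the 9 genes 8 were matched, in 14 windows, and Insr was not. A match of letters is a description and does not show binding.

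The adaptors had few splicing events. Irs1 had 1, an unannotated 95-nucleotide exon at chr1:82278201-82278295 in fasted liver, with too few reads to be tested. It was included by 2, 0 and 1 reads against 44, 22 and 20 that skipped it in Lpin1+/+, and by 1, 5 and 21 against 0, 4 and 5 in Lpin1-/- liver. The higher share in Lpin1-/- thus rested on 36 reads in all. Irs2 also had 1, at chr8:10993335-10993407, included in 0 to 3.16% of transcripts in every fasted library (adjusted p = 0.373). Foxo1 had no event in either state.

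Pik3r1, at chr13:101680563-101768217 on the minus strand, encodes the regulatory subunit that docks phosphoinositide 3-kinase on the adaptors. It was at 9.61, 3.58 and 4.91 RPKM in fasted Lpin1+/+ and 4.27, 5.73 and 4.34 RPKM in fasted Lpin1-/- liver. Refed liver held 12.6, 9.77 and 10.5 RPKM in Lpin1+/+ and 15.1, 9.80 and 8.58 RPKM in Lpin1-/-. In both genotypes every refed library lay above every fasted one. On refeeding it rose by 1.04 ± 0.30 in Lpin1-/- (adjusted p = 0.0305), and the change of 0.85 ± 0.30 in Lpin1+/+ did not pass (adjusted p = 0.223). The difference between these responses was 0.19 (adjusted p = 0.824). The Lpin1+/+ change was 1.195 (adjusted p = 0.0465) without fasted Lpin1+/+ replicate 1, and the Lpin1-/- call was lost without fasted Lpin1-/- replicate 1 or 3 or refed Lpin1-/- replicate 1 or 2 (adjusted p of 0.0704 to 0.110). Genotypes differed by -0.20 fasted and -0.01 refed, with overlap in both.

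Of the Pik3r1 exons in fasted liver, the 36-nucleotide exon at chr13:101694376-101694411 had the most reads of its rarer form. It was included at 13.4, 28.2 and 13.2% in fasted Lpin1+/+ and 14.9, 10.2 and 9.83% in fasted Lpin1-/- liver, with overlap (adjusted p = 0.565). In refed liver the exon that starts at chr13:101690481 was never skipped in Lpin1+/+, over 64, 69 and 77 inclusion reads for its 32-nucleotide version, which allow length-corrected skipping shares of up to 6.75, 6.27 and 5.63%. It was skipped by 4, 2 and 2 reads in Lpin1-/-, at an inclusion of 93.9, 96.5 and 95.1% (adjusted p = 0.0751). With a minimum of 50 counts per library in place of 10, it passed (adjusted p = 0.0425). The annotated 103-nucleotide version, with the same skipping reads and an inclusion of 97.8, 98.4 and 97.9% in refed Lpin1-/- liver, had an adjusted p of 0.108, and 0.0743 at that minimum. In fasted liver this version was skipped by 1, 0 and 0 reads in Lpin1+/+ and by 0, 4 and 5 in Lpin1-/-, with overlap (adjusted p = 0.198). The 95% Wilson intervals of the refed libraries overlapped for both versions, so skipping in single libraries could not be told apart at this depth.

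Pdpk1, at chr17:24073680-24150924 on the minus strand, encodes PDK1, the kinase that phosphorylates AKT in its activation loop. It was at 8.14, 1.93 and 3.10 RPKM in fasted Lpin1+/+ and 0.958, 2.79 and 2.81 RPKM in fasted Lpin1-/- liver, and the genotypes overlapped. Refed livers held 4.25, 2.58 and 2.87 RPKM in Lpin1+/+ and 8.68, 5.20 and 5.31 RPKM in Lpin1-/-. Refed Lpin1-/- libraries lay above all refed Lpin1+/+ and all fasted Lpin1-/- libraries. The rise on refeeding of Lpin1-/- mice was 1.25 ± 0.40 (adjusted p = 0.0486), close to the threshold, and was lost in 10 of the 12 fits that left out a library (adjusted p of 0.0524 to 0.178). It was kept without fasted Lpin1+/+ replicate 1 (adjusted p = 0.0144) or 2. Between refed genotypes the change was 0.79 (adjusted p = 0.274). The interaction stood at 1.45 ± 0.57 (adjusted p = 0.216). Without the 4 libraries the rise was 0.72 (adjusted p = 0.0481) and the interaction 0.34 (adjusted p = 0.543).

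Exon 3 of Pdpk1-201, 43 nucleotides at chr17:24107229-24107271, was the Pdpk1 exon with the most reads of its rarer form and is printed for that reason.

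Pdpk1 exon 3: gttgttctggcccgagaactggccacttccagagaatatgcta

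Its inclusion was 71.0, 86.0 and 90.7% in fasted Lpin1+/+ and 68.2, 72.6 and 75.4% in fasted Lpin1-/- liver, below the count minimum of the test. In refed liver it was 93.9, 58.0 and 100% in Lpin1+/+ and 89.0, 81.9 and 71.0% in Lpin1-/-, with overlap (adjusted p = 0.716).

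Akt1 and Akt2 encode the AKT kinases of liver, of which AKT2 is the one most tied to insulin-stimulated glucose and lipid metabolism. Akt1, at chr12:112653821-112674884 on the minus strand, was at 34.8, 17.9 and 28.4 RPKM in fasted Lpin1+/+ and 13.8, 23.7 and 22.5 RPKM in fasted Lpin1-/- liver. Refed livers held 34.1, 34.9 and 29.1 RPKM in Lpin1+/+ and 41.5, 35.6 and 34.0 RPKM in Lpin1-/-. Only the fasted and refed Lpin1-/- libraries did not overlap, and the rise between them was 0.89 ± 0.26 (adjusted p = 0.0316). It was lost without fasted Lpin1-/- replicate 1 (adjusted p = 0.117) or any refed Lpin1-/- replicate (adjusted p of 0.0665 to 0.0951), and without the 4 libraries least like their groups, where it was 0.57 (adjusted p = 0.0739). Fasted genotypes differed by -0.40 (adjusted p = 0.303).

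Akt2, at chr7:27591552-27640826 on the plus strand, was at 35.3, 24.3 and 34.5 RPKM in fasted Lpin1+/+ and 11.4, 20.1 and 21.4 RPKM in fasted Lpin1-/- liver. All fasted Lpin1-/- libraries lay below all fasted Lpin1+/+ libraries, with means of 17.6 ± 5.41 and 31.4 ± 6.13 RPKM. In refed liver the levels were 37.7, 31.1 and 42.4 RPKM in Lpin1+/+ and 32.5, 32.4 and 31.4 RPKM in Lpin1-/-, which overlapped. Akt2 fell by 0.82 ± 0.24 in fasted Lpin1-/- liver (adjusted p = 0.0333) and rose by 0.88 ± 0.24 on refeeding of Lpin1-/- mice (adjusted p = 0.0246). The interaction was 0.63 ± 0.34 (adjusted p = 0.350). The fasted call was lost without fasted Lpin1-/- replicate 1, fasted Lpin1+/+ replicate 1 or 3, or refed Lpin1-/- replicate 2 or 3 (adjusted p of 0.0508 to 0.119), and without the 4 libraries it was -0.46 (adjusted p = 0.0848). The refeeding call was lost without fasted Lpin1-/- replicate 1 or any refed Lpin1-/- replicate (adjusted p of 0.0625 to 0.0792).

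Most events of the pathway lay near full inclusion or full skipping. Of the 46 fasted events of the pathway that could be tested, 25 had inclusion over 90% and 17 under 10% in both genotypes, and 4 lay between. Of these 46, 2 were called, where 11.3% of all 69644 tested events were. Of the 43 refed events 0 were called, where 0.97% of 65231 were. Unadjusted p in limma was under 0.05 for 8 of the 46 fasted events and for 18145 of all 69644. In refed liver it was under 0.05 for 4 of the 43 and for 9301 of all 65231. The median change of the pathway's events was -0.83 fasted and -0.06 refed, beside -0.58 and -0.21 over all events. Events of a gene often share an exon, so they are not independent.

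The called Akt1 exon was exon 8 of Akt1-201, 69 nucleotides at chr12:112657667-112657735, which encodes part of the kinase domain. It and the 88-nucleotide exon 12 at chr12:112656502-112656589 are printed, because skipping reads of both were found in all 3 fasted Lpin1-/- libraries and in none of the fasted Lpin1+/+ libraries.

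Akt1 exon 8: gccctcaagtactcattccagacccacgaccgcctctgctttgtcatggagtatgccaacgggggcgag

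Akt1 exon 12: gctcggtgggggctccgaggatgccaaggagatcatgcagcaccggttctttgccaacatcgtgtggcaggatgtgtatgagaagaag

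Exon 8 was included by 929, 486 and 792 reads and skipped by 0, 0 and 0 in fasted Lpin1+/+ liver, which allows length-corrected skipping shares of up to 0.648, 1.24 and 0.760%. In fasted Lpin1-/- liver 303, 657 and 592 reads included it and 1, 4 and 2 skipped it, an inclusion of 99.3, 98.8 and 99.3%, and the 95% Wilson intervals of the single libraries overlapped between genotypes. In refed liver exon 8 was skipped by 1, 0 and 1 reads in Lpin1+/+ and by 2, 0 and 3 in Lpin1-/-, with overlap (adjusted p = 0.895). The fall in the log2 ratio was 2.89 ± 0.77 in size (adjusted p = 0.0287) and rested on 7 skipping reads, and 5 of the 6 fits that left out a library lost the call (adjusted p of 0.0558 to 0.116), all except that without the third-listed fasted Lpin1-/- library. Exon 12 was skipped by 0, 0 and 0 reads beside 1137, 505 and 881 inclusion reads in fasted Lpin1+/+ and by 2, 1 and 2 in fasted Lpin1-/- liver (adjusted p = 0.0689). In refed liver its skipping reads were 0, 1 and 0 in Lpin1+/+ and 0, 0 and 0 in Lpin1-/-. Its inclusion rose on refeeding of Lpin1-/- mice by 3.09 ± 0.72 in the log2 ratio (adjusted p = 0.0175), a call lost without the first-listed fasted or the second-listed refed Lpin1-/- library (adjusted p of 0.0650 and 0.0559).

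Across the 2 states 19 of the pathway's events had the same coordinates, and 16 of these were tested. On refeeding of Lpin1-/- mice 2 were called, the 148-nucleotide exon of Insr and exon 12 of Akt1, where 7.80% of all 28447 events tested were. In Lpin1+/+ and for the interaction 0 were called, where 0% and 0.777% of all events were, with 1 and 4 unadjusted p under 0.05 in limma among the 16. Of all 28447 events, 1459 in Lpin1+/+ and 3839 for the interaction had an unadjusted p under 0.05 in limma.

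The Akt2 exon with the most reads of its rarer form in fasted liver, 129 nucleotides at chr7:27616241-27616369, was included at 99.2 ± 0.57% in fasted Lpin1+/+ and 98.2 ± 1.14% in fasted Lpin1-/- liver (adjusted p = 0.414). Shorter versions of this exon share its skipping reads, and the widest gap was in the 28-nucleotide version. That version was at 97.0 ± 2.15% in fasted Lpin1+/+ and 93.6 ± 3.81% in fasted Lpin1-/- liver (adjusted p = 0.378). In refed liver the 129-nucleotide version was at 98.9 ± 1.24% and 98.6 ± 0.86%. These differences were within the spread between libraries.

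Foxo1 and Foxo3 encode the forkhead factors that AKT phosphorylates, FOXO1 being the main regulator of hepatic glucose output. Foxo1, at chr3:52268336-52353221 on the plus strand, was at 13.3, 1.70 and 2.71 RPKM in fasted Lpin1+/+ and 3.54, 10.7 and 9.81 RPKM in fasted Lpin1-/- liver. Refed livers held 3.66, 2.19 and 3.13 RPKM in Lpin1+/+ and 16.6, 3.8 and 3.66 RPKM in Lpin1-/-. Replicate 1 was the highest fasted Lpin1+/+ and the lowest fasted Lpin1-/- library, and the refed genotypes met at 3.66 RPKM. No comparison passed over all libraries, with 0.67 ± 0.65 (adjusted p = 0.516) between fasted genotypes and 0.90 (adjusted p = 0.452) between refed genotypes. Without the 4 libraries least like their groups, and as a description only, Foxo1 was higher in fasted Lpin1-/- liver by 1.83 (adjusted p = 0.00033). It then fell by 1.25 on refeeding of Lpin1-/- mice (adjusted p = 0.00322), while its interaction turned from 0.23 to -1.72 (adjusted p = 0.0122).

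Foxo3, at chr10:42181841-42276755 on the minus strand, changed more than any other of the 9 genes in the comparison of fasted genotypes and on refeeding of Lpin1-/- mice. It was at 8.59, 1.51 and 2.65 RPKM in fasted Lpin1+/+ and 12.1, 15.5 and 23.0 RPKM in fasted Lpin1-/- liver, means of 4.25 ± 3.81 and 16.9 ± 5.58 RPKM. After refeeding it was at 3.31, 3.24 and 4.27 RPKM in Lpin1+/+ and 5.38, 1.73 and 2.10 RPKM in Lpin1-/-. Fasted Lpin1-/- libraries lay above the 9 other libraries, and the refed genotypes overlapped. Foxo3 rose by 1.96 ± 0.46 in fasted Lpin1-/- liver (adjusted p = 0.0138) and fell by 2.20 ± 0.46 on refeeding of Lpin1-/- mice (adjusted p = 0.00795). The change on refeeding of Lpin1+/+ mice was 0.05 (adjusted p = 0.979), and it was -0.10 with rescaled libraries. The interaction was -2.24 ± 0.65 (adjusted p = 0.115). The refeeding call held in all 12 fits that left out a library, and the fasted call was lost without fasted Lpin1+/+ replicate 3 (adjusted p = 0.0607). Without fasted Lpin1+/+ replicate 1, the highest of its group, the interaction was -2.80 (adjusted p = 0.0313). Without the 4 libraries, and as a description only, it was -3.43 (adjusted p = 0.00196).

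Foxo3 held 3 of the 4 fasted events of the pathway whose rarer form averaged at least 5 reads. Its 90-nucleotide exon at chr10:42247697-42247786 matches no annotated exon in both start and end. It overlaps coding sequence and lies in the last exon of the annotated transcript Foxo3-202, so it is called the alternative last exon here. The splicing tables treat it as an exon between the first coding exon and the usual last coding exon. It is printed because the reads that join it to the first coding exon were most numerous in fasted Lpin1-/- liver, where the gene's level was highest.

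Foxo3 alternative last exon: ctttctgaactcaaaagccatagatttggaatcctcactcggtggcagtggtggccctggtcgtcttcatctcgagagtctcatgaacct

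In fasted Lpin1+/+ liver its inclusion was 18.5, 71.5 and 51.1%, from 41, 35 and 51 inclusion and 78, 6 and 21 skipping reads. In fasted Lpin1-/- liver it was 86.5, 66.2 and 71.3%, from 357, 364 and 613 inclusion and 24, 80 and 106 skipping reads. The genotypes overlapped, the lowest library lying in Lpin1+/+, and the change of 1.93 ± 0.87 did not pass (adjusted p = 0.181).

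Reads from the first coding exon to the alternative last exon numbered 30, 27 and 34 in fasted Lpin1+/+ and 258, 285 and 469 in fasted Lpin1-/- libraries. In refed liver they numbered 21, 21 and 44 in Lpin1+/+ and 48, 32 and 45 in Lpin1-/-. Fasted Lpin1-/- libraries held more than all others, with 10.01 ± 2.73 per 1000000 skipping counts against 0.893 ± 0.11, 0.886 ± 0.28 and 1.08 ± 0.23 in the other groups. Reads to the usual last coding exon numbered 78, 6 and 21 and then 24, 80 and 106 in the fasted groups, and 20, 29 and 28 and then 35, 22 and 10 in the refed groups, Lpin1+/+ before Lpin1-/- each time. These overlapped between genotypes in both states. The alternative junction made up 27.8, 81.8 and 61.8% of both junctions in fasted Lpin1+/+ and 91.5, 78.1 and 81.6% in Lpin1-/- liver. After refeeding it made up 51.2, 42.0 and 61.1% in Lpin1+/+ and 57.8, 59.3 and 81.8% in Lpin1-/- liver. Over both states the share was 20.7 percentage points higher in Lpin1-/-, with a pooled SD of 16.3 points. This pair of junctions was chosen after its values were seen and is described without a test.

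**Figure D4:**
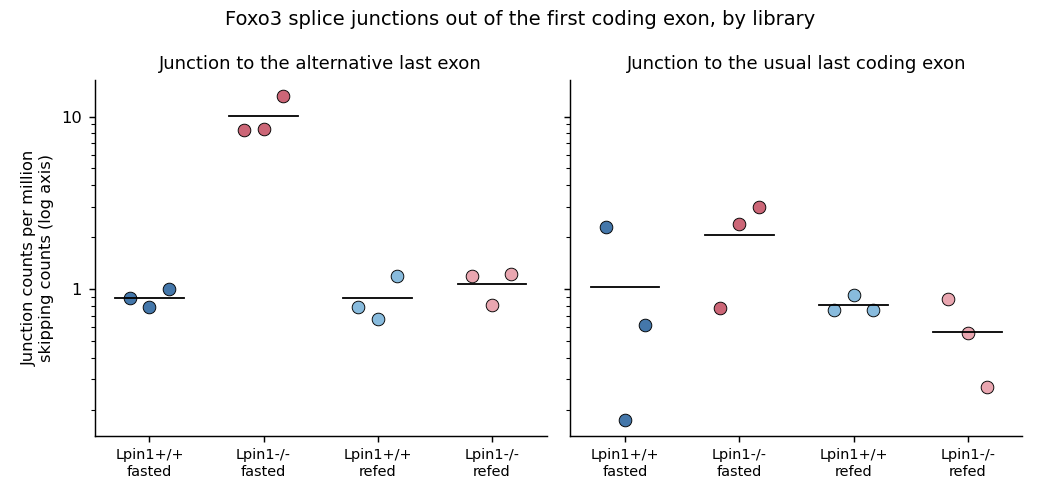
Reads per 1000000 skipping counts that join the first coding exon of Foxo3 to its alternative last exon (left) and to its usual last coding exon (right), on a log axis, 1 point per library with a line at the mean. The alternative junction lies at 8.36 to 13.2 in fasted Lpin1-/- liver and at 0.669 to 1.22 in the 9 other libraries, while the usual junction overlaps between groups.

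The 1 Foxo3 event called in fasted liver, at chr10:42255506-42255581, was included by 0, 0 and 0 reads in Lpin1+/+ and 0, 0 and 2 in Lpin1-/- liver. It was skipped by 30, 27 and 34 and by 258, 285 and 469 reads, the same junction reads as above. Its ratio of -2.63 (adjusted p = 0.044) was thus set by the skipping totals and by the 0.5 added to each count, and is no measure of inclusion.

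Igfbp1, Pdk4, Sesn1 and Txnip, known FoxO targets, rose in fasted Lpin1-/- liver. They were 4 of 12 targets listed and tested, where 5.63% of all genes were called higher, and 0 fell, with a median of 0.86 beside -0.14 over all genes. On refeeding of Lpin1-/- mice 6 fell, where 2.92% of all genes were called lower, and 0 rose, with a median of -1.11 beside 0.25. On refeeding of Lpin1+/+ mice 1 fell, where 1.72% of all genes were called in either direction, 88.4% of these higher. This list and those below were drawn up with earlier results of these data known. Their counts beside the shares of all genes are therefore a description. Sesn1, a stress-induced inhibitor of mTORC1 signalling, was at 4.46, 1.82 and 3.20 RPKM in fasted Lpin1+/+ and 23.6, 24.5 and 48.3 RPKM in fasted Lpin1-/- liver. In refed liver it was at 1.75 to 5.07 RPKM, so fasted Lpin1-/- stood above every other group. It rose by 2.97 ± 0.34 (adjusted p = 0.000399) between fasted genotypes, and its interaction of -3.47 ± 0.47 passed (adjusted p = 0.00913). Txnip, which restrains glucose uptake, rose from 24.8 ± 5.77 to 265 ± 133 RPKM between fasted genotypes (3.29 ± 0.36, adjusted p = 0.000358), with an interaction of -2.50 (adjusted p = 0.0398). Pdk4, which spares glucose by inhibiting pyruvate dehydrogenase, rose by 2.65 (adjusted p = 0.000901). Igfbp1, the classical insulin-repressed secreted protein, was at 283, 65.6 and 18.8 RPKM in fasted Lpin1+/+ and 961, 1139 and 6961 RPKM in fasted Lpin1-/- liver, a rise of 4.77 ± 1.03 (adjusted p = 0.00905). Pck1 and G6pc, the gluconeogenic enzymes, changed by -0.54 (adjusted p = 0.661) and 0.12 (adjusted p = 0.923). Ccng2, a cyclin, fell on refeeding in both genotypes, by 1.45 (adjusted p = 0.0216) in Lpin1+/+ and by 1.61 (adjusted p = 0.00256) in Lpin1-/-, and its difference between fasted genotypes was 0.77 (adjusted p = 0.0643).

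**Figure D5:**
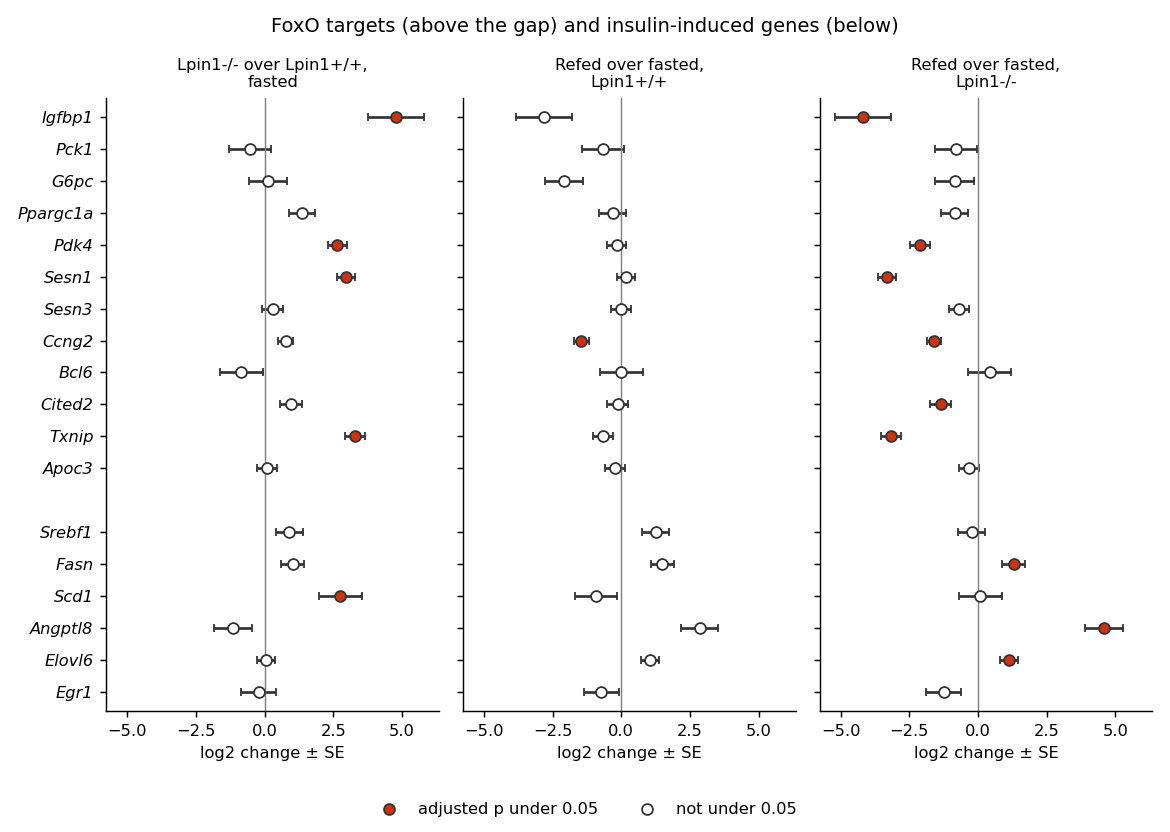
Change of log2(RPKM + 1) ± SE for 12 FoxO targets and 6 tested insulin-induced genes in 3 comparisons, with filled points where adjusted p from limma was under 0.05. Igfbp1, Pdk4, Sesn1 and Txnip are filled at 2.65 to 4.77 between fasted genotypes and Angptl8, Fasn and Elovl6 are filled on refeeding of Lpin1-/- mice, at 1.14 to 4.59.

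Of 7 insulin-induced genes of lipid synthesis and early transcription 6 were tested, and Fasn, Angptl8 and Elovl6, 3 of them, rose on refeeding of Lpin1-/- mice, where 17.8% of all genes were called higher. On refeeding of Lpin1+/+ mice 0 were called, where 1.72% of all genes were, with 4 unadjusted p under 0.05 in limma, and 0 fell in either genotype. Angptl8, an insulin-induced inhibitor of lipoprotein lipase, was at 11.6, 55.2 and 47.0 RPKM in fasted Lpin1+/+ and 20.2, 12.9 and 9.50 RPKM in fasted Lpin1-/- liver. In refed liver it was at 203, 194 and 317 RPKM in Lpin1+/+ and 113, 471 and 798 RPKM in Lpin1-/-. Refed libraries lay above all fasted ones in both genotypes. Angptl8 rose by 4.59 (adjusted p = 0.00165) in Lpin1-/-, its change of 2.85 in Lpin1+/+ did not pass (adjusted p = 0.0692), and neither did the interaction of 1.74 (adjusted p = 0.372). Fasn, the fatty acid synthase, rose by 1.30 (adjusted p = 0.0446) and Elovl6, a fatty acid elongase, by 1.14 (adjusted p = 0.0310) in Lpin1-/-. Fasn and Srebf1, a transcription factor of lipid synthesis, differed between fasted genotypes by 1.03 (adjusted p = 0.106) and 0.90 (adjusted p = 0.226). Scd1, the stearoyl-CoA desaturase, was higher in Lpin1-/- in both states, by 2.76 (adjusted p = 0.0295) and 3.77 (adjusted p = 0.0173).

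Of 13 further receptor-level genes 8 were tested, and 0 were called between fasted genotypes, 1 between refed genotypes and 2 on refeeding of Lpin1-/- mice, where 18.8%, 6.67% and 20.7% of all genes were. Between fasted genotypes 1 had an unadjusted p under 0.05 in limma. Crk, an adaptor, was higher in refed Lpin1-/- liver by 0.87 (adjusted p = 0.0186), and Crk and Shc1, an adaptor towards Ras, rose on refeeding of Lpin1-/- mice by 0.65 (adjusted p = 0.0266) and 1.19 (adjusted p = 0.00824). Grb2 and Crkl, adaptors too, changed there by 0.38 (adjusted p = 0.129) and 1.27 (adjusted p = 0.0943). Of 11 inhibitors of the receptor, all tested, only Ptprf, a receptor tyrosine phosphatase, was called, in the comparison of fasted genotypes (18.8% of all genes) and on refeeding of Lpin1-/- mice (20.7%). It was at 28.7, 10.8 and 17.5 RPKM in fasted Lpin1+/+ and 2.60, 4.05 and 2.93 RPKM in fasted Lpin1-/- liver. It fell by 2.17 ± 0.32 there (adjusted p = 0.00138) and rose by 1.26 on refeeding of Lpin1-/- mice (adjusted p = 0.0171). The phosphatases Ptpn2 and Ptpn1, and the inhibitors Socs3 and Grb10, did not pass in any comparison, with 0.43 (adjusted p = 0.116), -0.11 (adjusted p = 0.844), 1.16 (adjusted p = 0.150) and 0.25 (adjusted p = 0.423) between fasted genotypes.

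Of 11 phosphoinositide 3-kinase subunits and lipid phosphatases 10 were tested, and the class II kinase Pik3c2a alone was called, rising by 0.97 on refeeding of Lpin1-/- mice (adjusted p = 0.0140), where 20.7% of all genes were called. The regulatory subunit Pik3r2 changed by -0.82 (adjusted p = 0.0682) and the catalytic subunit Pik3ca by -0.80 (adjusted p = 0.129) between fasted genotypes. Pik3c2g, a class II kinase of liver, changed by 1.33 (adjusted p = 0.0805) between refed genotypes, and the phosphatase Inppl1 by 0.88 (adjusted p = 0.0606) on refeeding of Lpin1-/- mice. Among 19 regulators of AKT and mTOR, of which 18 were tested, 2 were called between fasted genotypes, where 18.8% of all genes were, and 4 on refeeding of Lpin1-/- mice, where 20.7% were. Ddit4 and Eif4ebp1 rose in fasted Lpin1-/- liver and fell on refeeding of Lpin1-/- mice. Ddit4, a stress-induced inhibitor of mTORC1, was at 34.1, 2.95 and 3.40 RPKM in fasted Lpin1+/+ and 248, 386 and 644 RPKM in fasted Lpin1-/- liver, a rise of 5.54 ± 0.86 (adjusted p = 0.00178). Eif4ebp1, the translation repressor that mTORC1 phosphorylates, rose from 90.05 ± 9.44 to 176 ± 14.3 RPKM (0.96 ± 0.21, adjusted p = 0.00906). Mlst8, a subunit of both mTOR complexes, and Rps6kb1, the S6 kinase, rose on refeeding of Lpin1-/- mice by 0.83 (adjusted p = 0.0120) and 0.80 (adjusted p = 0.0357). Mapkap1, a subunit of mTORC2, changed by -0.78 between fasted genotypes (adjusted p = 0.116). Of 9 AKT substrates 7 were tested and 0 were called in any comparison, with 2 unadjusted p under 0.05 in limma on refeeding of Lpin1-/- mice, where Bad changed by 0.78 (adjusted p = 0.0599) and Acly by 0.94 (adjusted p = 0.0778). Gsk3a changed there by 0.70 (adjusted p = 0.161), Foxo4 by -0.79 between fasted genotypes (adjusted p = 0.195), and Tbc1d1 by -0.54 between refed genotypes (adjusted p = 0.133).

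Of 13 genes of RNA-binding proteins listed as possible regulators of the Insr exon, 12 were tested. In fasted Lpin1-/- liver 2 fell, where 13.2% of all genes were called lower: Srsf1 by 1.02 (adjusted p = 0.0273) and Esrp2 by 0.98 (adjusted p = 0.0276). On refeeding of Lpin1-/- mice 6 rose, where 17.8% of all genes were called higher, and 0 fell, with a median of 0.92 beside 0.25 over all genes. Srsf1, which favours inclusion of the exon, rose by 2.13 (adjusted p = 0.000914), from 5.45, 9.75 and 8.39 RPKM fasted to 45.4, 35.6 and 31.2 RPKM refed. Mbnl1, which also favours inclusion, rose by 1.86 (adjusted p = 0.00458) and Esrp2, an epithelial splicing factor, by 1.46 (adjusted p = 0.00459). In the fit of all 12 libraries 0 were called on refeeding of Lpin1+/+ mice, where 1.72% of all genes were. The interaction called 0, where 1.28% of all genes were called. Each of these had 3 unadjusted p under 0.05 in limma. Inclusion of the Insr exon in Lpin1-/- liver was 91.7% fasted and 93.1% refed, within its spread.

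The summed level of 6 Kupffer cell markers was 112 to 239 RPKM in fasted and 33.1 to 84.6 RPKM in refed Lpin1-/- libraries, with 65.7 to 157 RPKM in fasted and 37.6 to 232 RPKM in refed Lpin1+/+ libraries. Of these 6, Clec4f alone was called on refeeding of Lpin1-/- mice, falling by 1.27 (adjusted p = 0.0236), where 2.92% of all genes were called lower. Of 6 endothelial markers Lyve1 alone was called in fasted Lpin1-/- liver, rising by 1.77 (adjusted p = 0.0209), where 5.63% of all genes were called higher. Stellate cell markers summed to 197 to 286 RPKM in fasted Lpin1-/- and 70.4 to 167 RPKM in fasted Lpin1+/+ liver. Of these, 0 of 6 were called there, where 18.8% of all genes were. None of these markers was at 0 in any library. Their part in the changes of Foxo3, Akt2 and the other genes was not tested.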

How the data were processed

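Whole-liver RNA of 12 mice was sequenced with a stranded kit at 69 bases paired-end; per the labels the tools were HISAT2 2.0.5, HTSeq 0.6.0 and DESeq2 1.20.0 with GRCm38, and the study names rMATS for splicing. The authors deposited RPKM values per gene and library, and skipped exon tables with inclusion and skipping read counts per library, listed in order without replicate numbers. Their p-value and FDR columns and 3 filtered subset tables were not used.

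Here RPKM was tested as log2(RPKM + 1), keeping genes that averaged 0.5 RPKM or more, by limma 3.58.1 with trend in a single fit of 4 groups (R 4.3.3). The study's count-based test could not be used on RPKM. Events counted 10 times or more in each library were tested by limma on the log2 ratio of inclusion to skipping counts, 0.5 added to each, less the log2 length ratio. Genotype was fitted on the 6 libraries of a state, and feeding on 28447 events common to both tables. The Insr exon was tested by an exact permutation within states. Scripts were tested on simulated data.

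Depth was 26.5 to 40.1 M (1 M is 1000000) skipping counts per library, over events that share junctions. Low RPKM values gave relative depths of 1 to 1.34, but the most frequent ratio to the reference library, fasted Lpin1-/- replicate 1, held only 12.5 to 16.7% of low genes in the other 11, so whole reads were not recovered. Deviations of same-numbered libraries correlated at 0.162 to 0.297 between refed genotypes, over the 0.1 taken to mark pairing, but fell to -0.474 between fasted genotypes, -0.441 between states in Lpin1-/- and -0.016 in Lpin1+/+. They correlated most, at 0.39 to 0.743, between fasted Lpin1+/+ and refed Lpin1-/- libraries. Those groups are not compared directly but enter the interaction with the same sign, so their shared deviations enter its estimates. The 9 genes, the gene lists and the tests were chosen with earlier results of these data known. The 9 genes are named in full. From each other list the text gives counts and the 3 genes with the smallest adjusted p by genotype and by feeding, plus interaction calls. For the insulin-induced list, 1 gene is not reported here. Igfbp1, Pck1, G6pc, Clec4f and Lyve1 were added after their values were seen. Exon sequences are from GENCODE M21 transcripts (GRCm38) and promoters from RefSeq (GRCm38.p6). Alternatives were other pseudocounts and minimums, rescaled libraries, a replicate block, fits of fewer libraries and precision weights.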

Additional observations from a re-analysis of the deposited data

Results flagged for a closer look

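The feeding response of 2 FoxO targets differed between the genotypes by the interaction test. For Sesn1 the difference, Lpin1-/- less Lpin1+/+, was -3.473 on the log2 scale, from a change of 0.17 in Lpin1+/+ and -3.31 in Lpin1-/- liver. For Txnip it was -2.495, from -0.66 and -3.15. Both comparisons use the fasted Lpin1-/- libraries.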

How the results depend on the processing

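Counts of called genes among the 9 were changed by several choices. With rescaled libraries 1 was called between fasted genotypes and 1 on refeeding of Lpin1-/- mice. Fitting only the libraries compared left 1 between fasted genotypes, and no minimum left 3 on refeeding of Lpin1-/- mice. Among the direct comparisons, same-numbered libraries deviated together at every number between refed genotypes only (0.162 to 0.297). There the replicate block left 0 of the 9 called, as without it, and 526 of all genes against 767. Fasted Lpin1+/+ and refed Lpin1-/- libraries also deviated together (0.39 to 0.743), and both enter the interaction. For the interaction the block left 0 of the 9 called, as without it, and 81 of all genes against 147. In the comparison of fasted and refed Lpin1-/- libraries, whose numbers did not pair them (-0.441 to -0.204), it left 3 (Akt1 and Pdpk1 lost, adjusted p of 0.0578 and 0.0632). Without the 4 libraries least like their groups, and as a description only, 1 gene was called on refeeding of Lpin1+/+ mice (Pik3r1, 1.27, adjusted p = 0.00951). The interaction then called 3, where Foxo1 reversed to -1.72. There the changes of Insr, Irs1, Pik3r1, Pdpk1 and Akt1 between fasted genotypes were also above 0, at 0.23, 0.11, 0.21, 0.13 and 0.03, none called. Leaving out 1 library gave 0 to 2, 0 to 0, 0 to 1, 1 to 5 and 0 to 1 called in the order fasted genotypes, refed genotypes, refeeding of Lpin1+/+, refeeding of Lpin1-/- and interaction. For events the same ranges were 0 to 4, 0 to 0, 0 to 0, 0 to 2 and 0 to 0. A minimum of 50 counts left 1 event between fasted genotypes, 1 between refed genotypes and 1 on refeeding of Lpin1-/- mice, and precision weights left 0 between fasted genotypes. No paired analysis was possible because the event tables carry no replicate numbers. The Insr exon difference was -6.51 points without the second-listed fasted Lpin1-/- library and -6.58 without the second-listed refed Lpin1+/+ library, and over all libraries left out it ran from -3.23 to -6.58. The Foxo3 share ran from 13.4 to 26.9 points. The cause of these differences was not tested.

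Over all genes, counts called ran from 1011 to 3399 (2168 as reported), 526 to 1382 (767), 0 to 1276 (198), 1712 to 2884 (2382) and 81 to 874 (147) over the other settings in the same order, and from 1037 to 2313, 242 to 1046, 23 to 229, 1122 to 3108 and 30 to 191 with 1 library left out. For all events they ran from 3371 to 8960 (7892), 477 to 1369 (633), 0 to 7 (0), 1750 to 4305 (2220) and 45 to 431 (221), and with 1 library left out from 3821 to 9479, 0 to 15, 0 to 2, 1078 to 2781 and 6 to 425. The share of called genes that were higher moved on rescaling from 29.9 to 46.9%, 39.0 to 50%, 88.4 to 63.2%, 85.9 to 59.2% and 61.9 to 55.6%. Skipping reads of the named Insr and Akt1 exons numbered 0 to 11 per library, which limits what their shares can show.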
